A study of Arabidopsis thaliana with 4 samples.

Results

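The genes described here encode 10 parts of the plant polyadenylation machinery, and they were chosen by locus. They are FCA (AT4G16280), FPA (AT2G43410), FY (AT5G13480), CPSF30 (AT1G30460), CPSF100 (AT5G23880), CPSF73-I (AT1G61010), CPSF160 (AT5G51660), FIPS5 (AT5G58040), CSTF64 (AT1G71800) and CSTF77 (AT1G17760). All rows that carry one of these loci were taken from the 4 tables of the series. The intron table of the deproteinized condition held 9 such rows among 34255, and that of the in vivo condition held 13 among 24782. The poly(A) table of the deproteinized condition held 0 of 1068 windows, and that of the in vivo condition held 2 of 6605. Thus 8 of the 10 genes had a row, among 9265 genes with a row in any table.

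The study probed nuclear RNA of 5-day-old wild-type (Col-0) Arabidopsis seedlings with NAI, a SHAPE reagent that acylates flexible nucleotides and so marks those that are not held in a structure. In the deproteinized condition, NAI at 100 mM was applied to nuclear RNA after the nuclei had been isolated and the proteins removed. In the in vivo condition, NAI at 100 mM was applied to the seedlings, and the nuclei were isolated afterwards. A library without NAI accompanied each condition, and the replicates were merged by the authors, so each condition is represented by 1 profile with no replicate spread. No p-value is therefore given, and every difference stands without a replicate check.

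Pre-mRNA 3′ ends are made by coupled reactions, an endonucleolytic cut and the addition of a poly(A) tail. The cleavage and polyadenylation specificity factor (CPSF) binds the A-rich signal before the cut, and the cleavage stimulation factor (CSTF) binds U-rich or GU-rich sequence near it. CPSF160 is the large scaffold subunit of CPSF, CPSF100 and CPSF73-I belong to its nuclease module with CPSF73-I as the endonuclease, and FY is the plant relative of WDR33, which contacts the signal in animals. CPSF30 is a zinc finger subunit, and FIPS5 is a homologue of yeast Fip1, which links CPSF to the poly(A) polymerase. CSTF77 bridges the CSTF subunits, and CSTF64 is the subunit that binds RNA. FCA and FPA are RNA-binding proteins of the autonomous flowering pathway. Each favours the use of an early poly(A) site within its own pre-mRNA, in an intron, and so limits its own expression. CPSF30 is likewise known for transcripts that end at an internal poly(A) site.

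Each intron row spans the intron and 50 nt of exon on either side. Scores have no unit and run within each row between 0 and 1, with the highest and lowest nucleotides set to those limits. Levels can therefore be compared between nucleotides of a row, but a mean compared between rows or conditions also depends on how each row was scaled. Each row also holds one intermediate score that recurs at many nucleotides. This recurring score took 15.8 to 40.3% of the scored nucleotides in the deproteinized rows of these genes and 10.3 to 58.3% in their in vivo rows. The median over all introns was 26.5% in the deproteinized condition and 34.3% in the in vivo condition. Missing scores occurred in 1 of the 9 deproteinized rows, leaving 8 complete, whereas 4 of the 13 in vivo rows were complete. The median share of missing nucleotides was 12.6% in the in vivo rows of these genes. Over all in vivo introns it was 0%, with an upper quartile of 4.75%, so these in vivo rows were less complete than most.

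The coverage of the machinery differed between the conditions. Deproteinized intron rows came from 4 genes, namely 6 rows of FPA and 1 row each of FY, CSTF64 and CSTF77. In vivo intron rows came from 3 genes, namely 4 rows of FPA, 8 rows of CPSF160 and 1 row of CPSF100. Both poly(A) windows were in vivo, 1 of FCA and 1 of FIPS5. CPSF30 and CPSF73-I had no row in any table. Only 4 introns had rows in both conditions and all were of FPA, so 15678 introns could be compared over the whole series but only FPA in this group of genes. Even the best covered genes were seen in part. The RefSeq annotation of TAIR10.1 lists 8 distinct introns of FPA, of which 6 had a row, and 27 of CPSF160, of which 8 had a row. For FY it lists 21, for CSTF77 21, for CPSF100 16 and for CSTF64 10, each with 1 row.

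The 5′ splice sites of the introns that the results turn on are shown here, as 20 exon bases followed by 10 intron bases of the sense strand, with the bases from −3 to +6 that pair with U1 snRNA in capitals. Positions are counted from −1, the last exon nucleotide, and +1, the first intron nucleotide. The sequences are of the TAIR10.1 assembly from RefSeq.
FPA intron 1 (chr2:18030710-18030739, minus strand): agatcgaatacgcacgaCCGGTTTGTtctt
FPA nested intron (chr2:18029559-18029588, minus strand): agacaaaatctgatgttTAGGCAAGAgaaa
FPA intron 3 (chr2:18028838-18028867, minus strand): atatgaatcataaaccgCAGGTTAGTcttg
FPA intron 4 (chr2:18028439-18028468, minus strand): cgatactagtttttactCTGGTATGAaacg
FPA last intron (chr2:18026349-18026378, minus strand): tcataatcataatcttcAAGGTAATTatct
FY intron 1 (chr5:4331618-4331647, minus strand): agatccacgctcgtttcAAGGTAACCtaaa
CPSF160 intron 7 (chr5:20982603-20982632, plus strand): gcctcctcagctgatagCAGGTACAGtttt
CPSF160 intron 13 (chr5:20984248-20984277, plus strand): gaccggaaatgattactGAGGTATGCgtat
CPSF160 intron 25 (chr5:20988517-20988546, plus strand): ttatcgcatatagtgttTACGTGGTGagat
All introns with a row ended in AG and began with GT, except the nested FPA intron, which began with GC. The nucleotide at −1 was G in all 9 deproteinized rows and in 10 of 13 in vivo rows. The other 3 were in CPSF160, with uridine in intron 23, cytidine in intron 25 and adenosine in intron 26.

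The −1 nucleotide was examined because the study asked whether an unpaired stretch just before the 5′ splice site goes with splicing. In the deproteinized condition, 4 of 9 introns of these genes had a −1 score of at least 0.6, a level taken here as reactive, against 49.7% of 33903 introns of the whole table. In the in vivo condition 3 of 12 introns with a score reached 0.6, against 42.2% of 23736. The Wilson 95% intervals of these shares, which cover only the number of introns, ran from 18.9 to 73.3% in the deproteinized condition and from 8.89 to 53.2% in the in vivo condition. Both hold the background share, so the genes of the machinery could not be told from other introns in this respect. A second call compared −1 with the mean of its own flanks, the nucleotides −20 to −3 and +1 to +20. By this measure 7 of 9 deproteinized introns exceeded their flanks against 67.5% of all introns, and 4 of 12 in vivo introns did so against 60.8%. The long and short rows of the last FPA intron share their 5′ splice site, so the deproteinized rows are not independent. With 1 row per 5′ splice site, 3 of 8 deproteinized introns reached 0.6 and 6 of 8 exceeded their flanks.

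**Figure D1:**
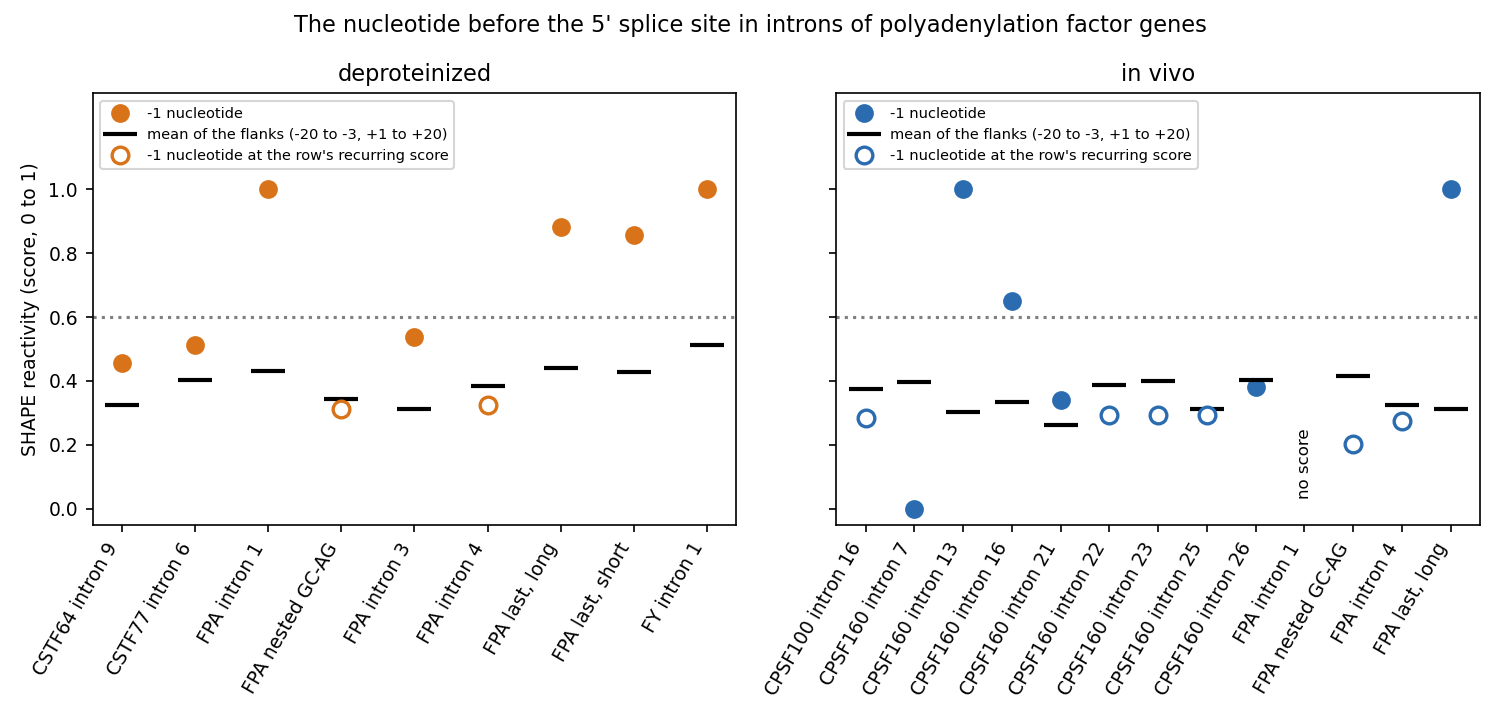
SHAPE reactivity (score, 0 to 1) of the −1 nucleotide in each intron row of the polyadenylation genes, with the deproteinized rows on the left and the in vivo rows on the right. Circles give −1, open where it holds the recurring score of the row, black dashes give the mean of the flanks, and the dotted line marks 0.6. In the deproteinized condition 4 of 9 circles lie above the line, and in the in vivo condition 3 of 12.

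The low −1 scores were in large part recurring scores. In the deproteinized condition −1 held the recurring score of its row in 2 of 9 introns, against 7.84% of all introns. In the in vivo condition it did so in 6 of 12, against 11.8% of all introns. The 6 were FPA intron 4 and the nested FPA intron, the single CPSF100 intron, and the CPSF160 introns 22, 23 and 25. With recurring scores left out, the −1 nucleotide exceeded its flanks in 7 of 7 deproteinized introns, against 70.8% of all introns treated in the same way, and in 4 of 6 in vivo introns, against 64%. It reached 0.6 in 4 of 7 deproteinized introns, against 53.9%, and in 3 of 6 in vivo introns, against 47.8%. The Wilson 95% intervals of these 4 shares hold the background share. What the recurring score stands for is not given in the sources used here, and its part in the −1 calls was not tested beyond this count.

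FPA, the only gene compared between the conditions, had 6 deproteinized rows, given here in transcript order. Intron 1 (chr2:18029349-18030719, 1371 nt) is spliced in 5 of 6 annotated transcripts and separates exons that are 5′ UTR or coding depending on the transcript. Its −1 nucleotide stood at 1 in the deproteinized condition, while its flanks averaged 0.43. In the in vivo condition none of the nucleotides −3 to +6 had a score, and only 1 nucleotide of the preceding 50 nt of exon had one. Hence the intron that is known for the internal poly(A) site of FPA could not be compared at its 5′ splice site.

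The nested intron (chr2:18029349-18029568, 220 nt) shares its 3′ splice site with intron 1 but starts at the GC shown above, at nucleotide 1152 of intron 1. It is spliced in 1 of 6 annotated transcripts. Its −1 score was low in both conditions, 0.312 with flanks of 0.345 in the deproteinized condition and 0.203 with flanks of 0.414 in the in vivo condition. Both −1 scores were the recurring score of their rows. Farther into this intron the scores of the conditions differed in places, in either direction. The +3 nucleotide scored 0.00696 in the deproteinized condition and 1 in the in vivo condition, and the 12 nucleotides from +3 to +14 averaged 0.265 after deproteinization against 0.524 in vivo. They were picked as the stretch of this intron with the largest fall after deproteinization, so the order was fixed by that choice. The stretch picked for the largest rise, +146 to +157, averaged 0.601 after deproteinization and 0.295 in vivo.

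Intron 3 (chr2:18028762-18028847, 86 nt), which all 6 annotated transcripts splice between coding exons, had a row in the deproteinized condition only. Its −1 score of 0.538 exceeded its flanks at 0.311. Intron 4 (chr2:18028320-18028448, 129 nt) is spliced in 2 of 6 transcripts and lies between coding exons. Its −1 nucleotide scored 0.324 with flanks of 0.384 in the deproteinized condition and 0.275 with flanks of 0.323 in the in vivo condition. Both were recurring scores. The −3 and −2 nucleotides of this intron were also low, at 0.324 each after deproteinization and at 0.297 and 0.275 in vivo. Its +3 nucleotide was reactive in both conditions, with 0.834 after deproteinization and 0.634 in vivo.

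The last intron of FPA, in the 3′ UTR, starts at one 5′ splice site and ends at one of 2 3′ splice sites. The long form (chr2:18025561-18026358, 798 nt) occurs in 2 of 6 transcripts and the short form (chr2:18026260-18026358, 99 nt) in 1. The 5′ splice site was reactive in both conditions. In the long row −1 scored 0.883 with flanks of 0.442 after deproteinization and 1 with flanks of 0.312 in vivo. The neighbour at −2 scored 0.9 after deproteinization but 0.299 in vivo, and +1 scored 1 after deproteinization but 0.329 in vivo. The reactive stretch at this exon end thus spanned −2 to +1 in the deproteinized condition and −1 alone in the in vivo condition. The short form, seen only after deproteinization, gave 0.858 at −1 and 0.875 at −2. These are not separate measurements, since over the 199 nt that both rows hold their scores correlated at Pearson r = 0.9998.

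**Figure D2:**
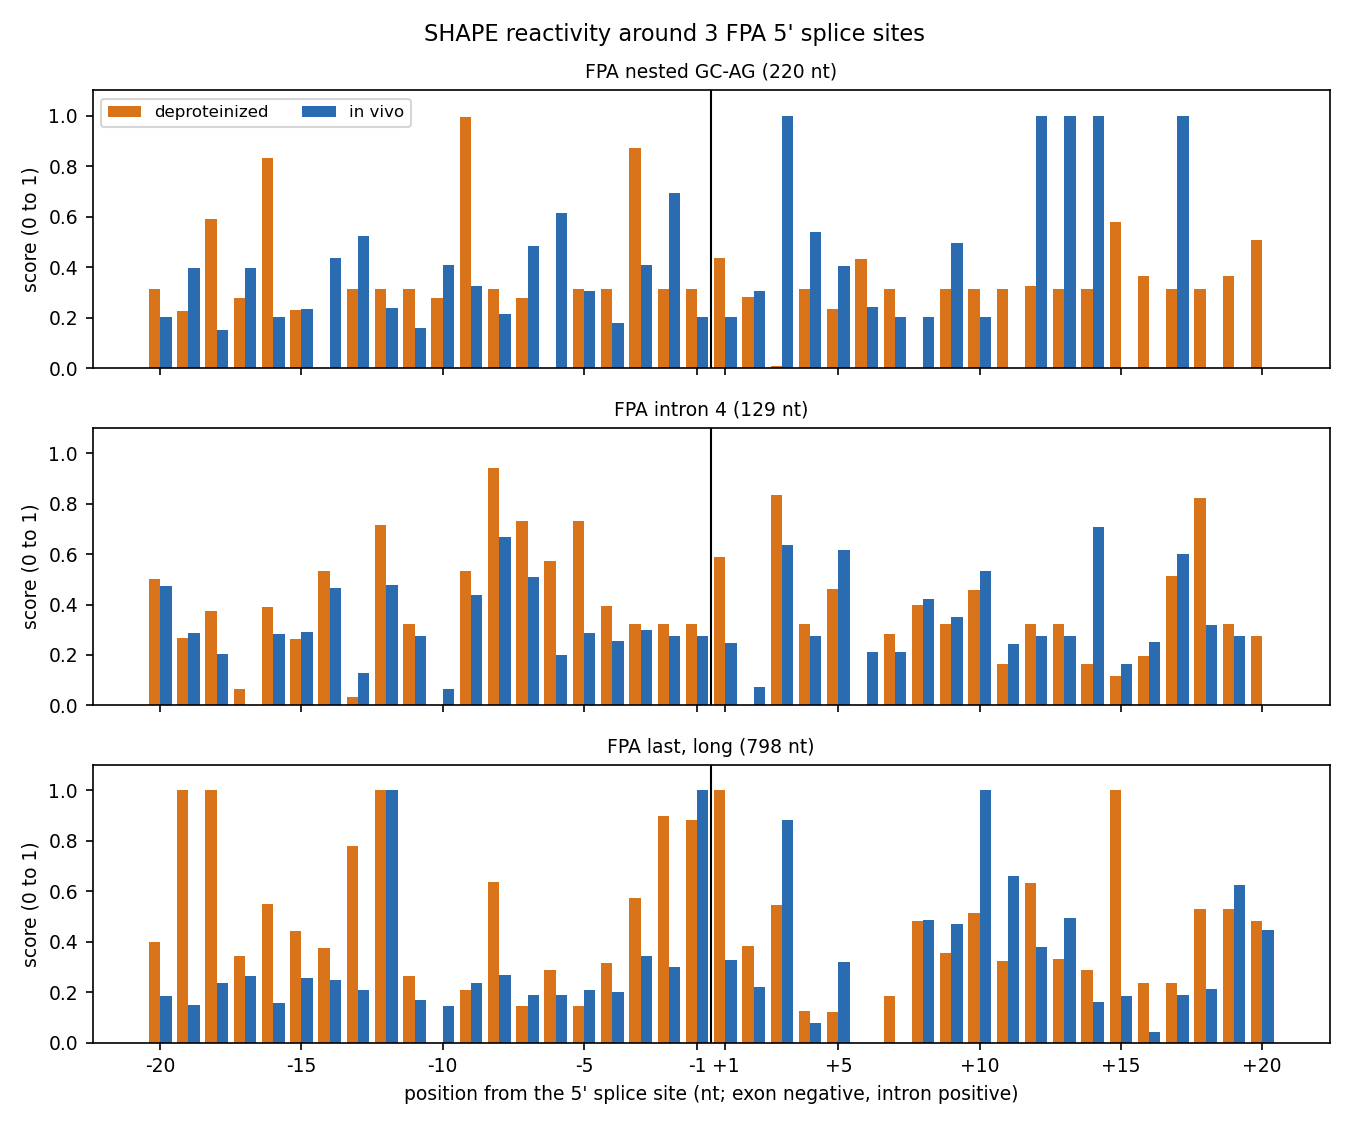
SHAPE reactivity (score, 0 to 1) of each nucleotide from −20 to +20 around 3 FPA 5′ splice sites, orange for the deproteinized and blue for the in vivo condition, with the black line at the exon end. At the last intron the −1 bars reach 0.883 after deproteinization and 1 in vivo, whereas the −1 bars of the nested intron and of intron 4 stay between 0.203 and 0.324.

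Between the conditions, the −1 score of FPA moved little. It was lower after deproteinization by 0.12 in the last intron (0.883 against 1), higher by 0.05 in intron 4 and higher by 0.11 in the nested intron. None of these 3 differences reached 0.3, the size taken here as a change. Over all shared introns 21.6% of 14871 were higher by at least 0.3 after deproteinization and 14.1% were lower by as much. With 3 introns of 1 gene, 2 of which held the recurring score in both conditions, a share of changed introns of up to 56.1% lies within the Wilson 95% interval.

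Along whole rows, the agreement between the conditions differed from intron to intron. In intron 4 the scores of the 161 nucleotides measured in both conditions correlated at Pearson r = 0.506 and Spearman rho = 0.53. For the last intron r was 0.274 and rho 0.266 over 651 nucleotides, and for intron 1 r was 0.233 and rho 0.274 over 1133. For the nested intron r was 0.0411 and rho 0.118 over 236. The values are across nucleotides of 1 RNA, which share sequence and neighbours and are not independent. Over all 15678 shared introns the median Pearson r was 0.315, with quartiles of 0.227 and 0.408. Intron 4 lay above 91.9% of them, while only 1.1% lay at or below the nested intron. The 2 rows that overlap, intron 1 and the nested intron, held almost the same profile within a condition (r = 0.993 over 320 nt after deproteinization and 0.989 over 236 nt in vivo). The low agreement of the nested intron is therefore that of the 3′ part of intron 1.

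FPA scores were on average higher after deproteinization in all 4 shared introns. Over nucleotides scored in both conditions, the last intron averaged 0.385 after deproteinization and 0.294 in vivo, and intron 1 averaged 0.37 after deproteinization and 0.294 in vivo. Intron 4 averaged 0.433 after deproteinization and 0.373 in vivo, and the nested intron 0.372 after deproteinization and 0.343 in vivo. Across all shared introns the mean was higher after deproteinization in 59.1%, with a median difference of 0.01, and the median difference of the 4 FPA introns was 0.07. The means depend on the scaling of each row. The recurring score was also higher after deproteinization, at 0.287 against 0.188 in vivo in the last intron and 0.276 against 0.178 in intron 1. In intron 4 it was 0.324 against 0.275, and in the nested intron 0.312 against 0.203. Its part in the means was not tested. The nested intron lies within intron 1, so the 4 introns are not independent. In the 4 introns, 15.5 to 16.9% of nucleotides were higher by at least 0.3 after deproteinization and 7.45 to 12.7% were lower. Over all shared introns the medians were 13.1% higher and 11.4% lower.

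The long introns of FPA were read in stretches of 100 nt from their first nucleotide. Intron 1 had scores in both conditions in 13 stretches, and the deproteinized mean was higher in 10 of them and lower in 3. The widest gap was at nucleotides 501 to 600, where the mean was 0.38 after deproteinization and 0.205 in vivo. The 3 stretches with a lower deproteinized mean were adjacent, from nucleotide 1001 to 1300, and hold the first bases of the nested intron. At 1001 to 1100 the mean was 0.399 after deproteinization and 0.522 in vivo, over the 71 nucleotides with both scores. In the last intron the deproteinized mean was higher in 4 of 7 stretches. At nucleotides 601 to 700 it was 0.327, against 0.208 in vivo, and at 701 to 798 it was 0.366, against 0.237 in vivo. Near the 5′ splice site of that intron the order was the other way, with 0.416 after deproteinization and 0.437 in vivo at nucleotides 1 to 100, but only 38 nucleotides had both scores.

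**Figure D3:**
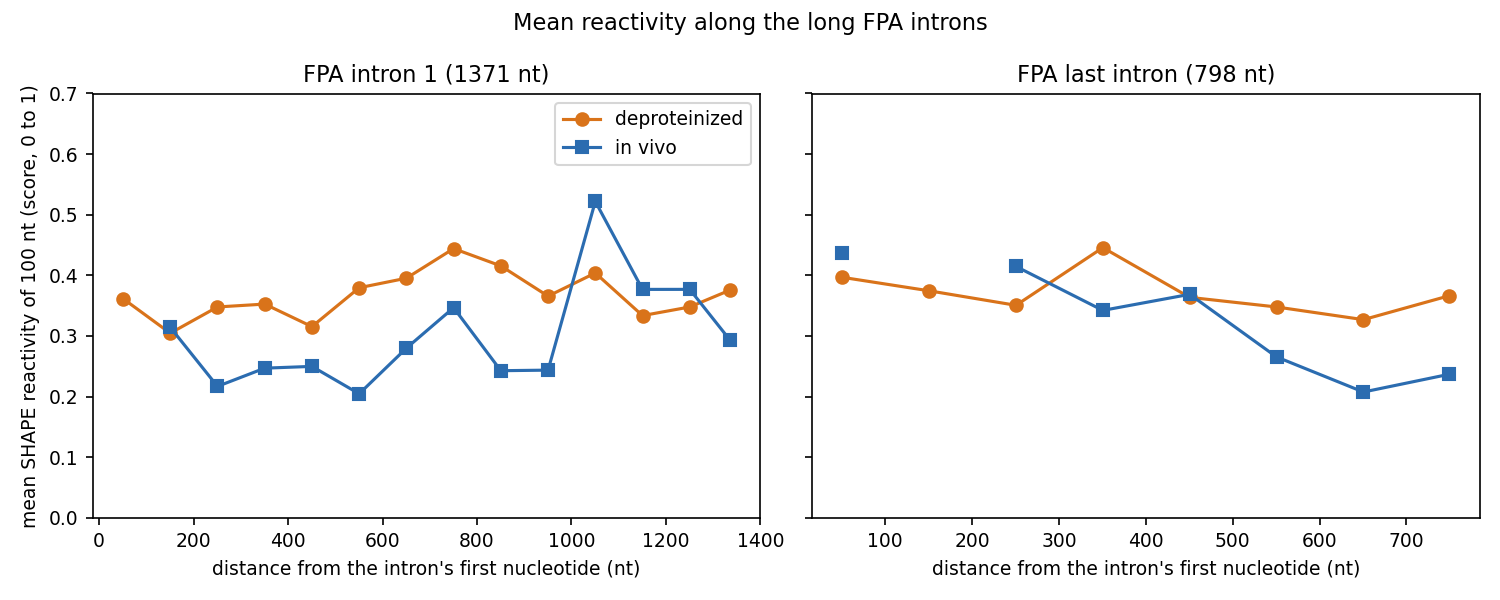
Mean SHAPE reactivity (score, 0 to 1) of successive stretches of 100 nt along FPA intron 1 and the last FPA intron, orange for the deproteinized and blue for the in vivo condition, each over the nucleotides with a score in that condition. A gap means that no in vivo score exists. The in vivo line lies above the deproteinized line between nucleotides 1001 and 1300 of intron 1 and below it from 201 to 1000.

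The stretches of 12 nucleotides with the widest gaps are shown with up to 9 bases on either side, the 12 nucleotides in capitals. They were picked for their difference, and so their values are a description.
FPA intron 1, higher after deproteinization (chr2:18029884-18029913, minus strand): taactctacCAATCAGAAACGctttattcg
FPA intron 1, lower after deproteinization (chr2:18029644-18029673, minus strand): ggactcaggCAATGGATAAAGacaggaatg
FPA last intron, higher after deproteinization (chr2:18025563-18025592, minus strand): cactaactcATAGCTGTTTTGaaattgtgt
FPA last intron, lower after deproteinization (chr2:18025929-18025958, minus strand): ttagcatacCTTGGATTTGTAaattttggt
In intron 1 the first stretch, nucleotides 816 to 827, averaged 0.675 after deproteinization and 0.313 in vivo, and the second, 1056 to 1067, averaged 0.47 after deproteinization and 0.793 in vivo. The last nucleotides of that second stretch, 1064 to 1067, scored 1, 1, 0.451 and 0.628 after deproteinization and 0.877, 1, 1 and 1 in vivo. In the last intron the first stretch, 776 to 787, averaged 0.636 after deproteinization and 0.282 in vivo, and the second, 410 to 421, averaged 0.305 after deproteinization and 0.514 in vivo.

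The second stretch of the last intron lies just before an annotated transcript end. One of the 6 FPA transcripts, the one with the short form of the last intron, ends at position 18025922 of chromosome 2, which is nucleotide 437 of the long form. Around this end, all 100 nucleotides of a window like those of the poly(A) tables were scored in both conditions. The region −28 to −17 averaged 0.305 after deproteinization and 0.452 in vivo, and the region −4 to +1 averaged 0.489 after deproteinization and 0.285 in vivo. The rest of the window averaged 0.366 after deproteinization and 0.353 in vivo. Relative to the rest of the window, the upstream region was lower after deproteinization and higher in vivo, and the cleavage region was the reverse. The upstream region nearly coincides with the stretch picked above for its lower deproteinized mean, so its order between the conditions was fixed by that choice. At another annotated transcript end in this row, position 18025540 in the exon after the intron, 80 nucleotides of the window were scored. There the cleavage region was above the rest in both conditions, at 0.714 against 0.468 after deproteinization and at 0.567 against 0.262 in vivo. Its upstream region, at 0.415 after deproteinization and 0.283 in vivo, was below the rest after deproteinization and above it in vivo. A further annotated end, position 18026397 in the exon before the intron, is that of 2 of 6 transcripts, and 61 nucleotides of its window were scored. At that end the cleavage region was below the rest in both conditions, at 0.307 against 0.42 after deproteinization and at 0.165 against 0.282 in vivo. The upstream region of that end held no score. The 30 bases of the end at 18025922 are shown with the upstream region in capitals.
FPA internal transcript end, −28 to +1 (chr2:18025921-18025950, minus strand): CCTTGGATTTGTaaattttggtaaatgtga

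At 3′ splice sites, a branch site motif (CURAY, in which R is a purine and Y a pyrimidine) was looked for on the sense strand 15 to 50 nt before the intron end. Its second-last base, the branch adenosine, was set against its neighbours at a distance of 3 to 10 nt. It was above them in 2 of 3 deproteinized introns with a motif, against 60.7% of 8331, and in the 1 in vivo intron with a motif, against 59.4% of 5715. The long form of the last FPA intron carried the clearest one, shown in capitals.
FPA last intron, long form (chr2:18025575-18025599, minus strand): gccgtatcaCTAACtcatagctgtt
FPA last intron, short form (chr2:18026274-18026298, minus strand): catacttttCTGATcctttcttgtt
The adenosine of the long form, 26 nt from the intron end, scored 1 after deproteinization with flanks of 0.377, and 0.893 in vivo with flanks of 0.206. That of the short form, also 26 nt from its end, scored 0.239 with flanks of 0.413 after deproteinization. The adenosine of CSTF77 scored 0.546 and its flanks 0.54. It makes up the count of 2 of 3 by this narrow margin.

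Among the subunits of CPSF and CSTF, the deproteinized rows gave 3 further introns. FY intron 1 (chr5:4331532-4331627, 96 nt), next to the 5′ UTR, had a −1 score of 1 over flanks of 0.512, and the 50 nt of exon before it averaged 0.606, the highest such mean of the 9 rows. CSTF77 intron 6 (chr1:6114920-6115034, 115 nt) scored 0.513 at −1 over flanks of 0.403. CSTF64 intron 9 (chr1:27001615-27001697, 83 nt) scored 0.457 over flanks of 0.323, and its nucleotides +1 to +6 all held the recurring score of 0.33. CSTF77 intron 6 and CSTF64 intron 9 lie between coding exons. Scores of 1 were more frequent in the FY row, at 27 of 196 nucleotides, than in the CSTF77 row, at 11 of 215, and the CSTF64 row, at 10 of 183.

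CPSF160 gave 8 in vivo rows, and their 5′ splice sites ranged over the whole scale. Intron 13 (chr5:20984268-20984669, 402 nt) had −1 at 1 with flanks of 0.303. Intron 16 (chr5:20985385-20985496, 112 nt) had 0.649 with flanks of 0.335, and intron 21 (chr5:20987557-20987658, 102 nt) had 0.341 with flanks of 0.264. Intron 7 (chr5:20982623-20982800, 178 nt) stood at the other end, with −1 at 0 next to 0.691 at −2 and 0.602 at −3. These 4 are spliced in all 4 annotated transcripts and lie between coding exons.

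The remaining 4 rows of CPSF160 lie at the 3′ end of the gene, where its transcripts diverge. Intron 22 (chr5:20987791-20987886, 96 nt), intron 23 (chr5:20988064-20988201, 138 nt) and intron 25 (chr5:20988537-20988635, 99 nt) all had the recurring score of 0.293 at −1. Intron 26 by the longest count (chr5:20988995-20989153, 159 nt), which is spliced in all 4 transcripts, had 0.382, beside scores of 1 at −2 and at −3. Intron 25 is annotated in 1 of 4 transcripts, and its nucleotides −3 to +6 all held the recurring score. The 4 rows had the same recurring score although they do not overlap, and no other row of the in vivo table had it. Introns 22, 23 and 25 held 31, 75 and 42 distinct scores, below the lower quartile of 87 over all in vivo introns, whereas intron 26 held 109, near the median of 114. Introns 16 and 21 were also below that quartile, with 66 and 57, and the longer introns 7 and 13 held 130 and 240. The number depends on the length of the row and on its missing scores. CPSF100 intron 16 (chr5:8057974-8058045, 72 nt), the last of its gene, had 58 distinct scores and −1 at its recurring score of 0.283.

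The 50 nt of exon after the intron averaged more than the intron itself in 9 of 9 deproteinized rows, against 81.3% of all introns, and in 12 of 13 in vivo rows, against 75% of all introns. The Wilson 95% intervals, 70.1 to 100% after deproteinization and 66.7 to 98.6% in vivo, hold these background shares. The 10 genes could thus not be told from all introns in this respect. Other genes of 3′ end formation had the higher exon mean in 42 of 49 deproteinized and 23 of 24 in vivo rows. Their intervals were 73.3 to 92.9% after deproteinization and 79.8 to 99.3% in vivo, and the in vivo interval lay above the background share. Of those 24 in vivo rows 9 are of PABN3. The higher exon mean was seen after the values were examined. The overlapping FPA rows share their exon or their intron, so the rows are not independent. In FPA intron 1 the exon after averaged 0.525 and the intron 0.367 after deproteinization, and the exon 0.47 and the intron 0.293 in vivo. In CPSF160 intron 25 the exon after averaged 0.591 and the intron 0.377 in vivo. The exception was the last FPA intron in vivo, with 0.298 in both. With medians in place of means, the exon was higher in only 6 of 9 deproteinized and 8 of 13 in vivo rows.

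By base, with the nucleotides of all rows pooled, adenosine had the highest mean score in both conditions and cytidine the lowest. Adenosine averaged 0.406 over 1100 nucleotides after deproteinization and 0.365 over 1220 in vivo, counting overlapping FPA rows each time, so that the long FPA rows weigh most. Cytidine averaged 0.37 over 731 nucleotides after deproteinization and 0.306 over 805 in vivo. Over all introns adenosine averaged 0.384 after deproteinization and 0.385 in vivo, and cytidine 0.349 after deproteinization and 0.33 in vivo. The order did not hold in every row. Adenosine was the highest base in 4 of 9 deproteinized and 5 of 13 in vivo rows, and cytidine was the highest in 3 deproteinized and 3 in vivo rows, among them CSTF77 intron 6 at 0.49 and CSTF64 intron 9 at 0.408. Cytidine was the lowest base in 4 of 9 deproteinized and 8 of 13 in vivo rows, and adenosine was the lowest in 0 rows of either condition. The same counts over all introns were not computed.

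FCA and FIPS5 gave the 2 poly(A) windows, both in vivo. A window covers 100 nt, and its scores run between 0 and 2. The poly(A) site was taken here to be nucleotide 51, position 0. The study examined 2 regions, −28 to −17 upstream of the site and −4 to +1 across it. The 30 bases from −28 to +1 are shown with −4 to +1 in capitals.
FCA (chr4:9206597-9206626, minus strand): gatctatcaatttgtagtttcctgATCTTC
FIPS5 (chr5:23494050-23494079, plus strand): aagattattggtcttttagttttgTTCTTA
Counted this way, the FCA site at position 9206598 of chromosome 4 lies 1 nt before the annotated end of the gene, in the 3′ UTR. This is the site at the end of the full-length transcript, and the internal site of FCA had no window. The FIPS5 site at position 23494078 of chromosome 5 also lies in the 3′ UTR, 181 nt before the annotated gene end. The hexamer AATAAA was looked for on the sense strand between −40 and −10. Neither window held it, nor a variant with 1 mismatch, and of all 6598 in vivo windows of annotated genes 7.2% held it and 41.2% held it with at most 1 mismatch.

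In both windows both regions averaged more than the rest of the window. In FCA the upstream region averaged 0.832 and the cleavage region 0.975, against 0.747 for the rest. In FIPS5 the upstream region averaged 0.843 and the cleavage region 0.738, against 0.717 for the rest. Over all in vivo windows the upstream region exceeded the rest in 52.6% and the cleavage region in 49.1%, so that 2 of 2 in either region cannot be told from the background. The gaps were modest. The nucleotide scores had an SD of 0.503 in FCA and 0.513 in FIPS5, and the FCA cleavage region, with the largest gap of the 4 at 0.228, lay above 79.2% of all windows. The gap of 0.0204 at the FIPS5 cleavage region rested on a single nucleotide.

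Single nucleotides show where the scores came from. In FCA the adenosine at −23 scored 1.94 and the uridine at −17 scored 1.37, while −24 scored 0.0651. Across the site −1 scored 1.38, +1 and +2 both scored 2, and the site itself held the recurring score of 0.558. In FIPS5 the adenosine at −28 scored 2, the guanosine at −19 scored 1.31 and the uridine at −17 scored 1.45, while −21 scored 0. Across its site −1 scored 2, 4 of the 6 nucleotides held the recurring score of 0.58, and +1 scored 0.107.

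The sequence before and after the site differed in resolution. The recurring score took 11 of 50 nucleotides before the site and 24 of 49 after it in FCA, and 10 of 50 and 26 of 49 in FIPS5. Means were 0.661 before and 0.887 after the site in FCA, and 0.787 before and 0.683 after it in FIPS5. With recurring scores left out, the upstream region averaged 0.856 in FCA, below the rest at 0.874, and 0.867 in FIPS5, above the rest at 0.805. The cleavage region stayed above the rest, with 1.18 in FCA and 1.05 in FIPS5, over 4 and 2 nucleotides.

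**Figure D4:**
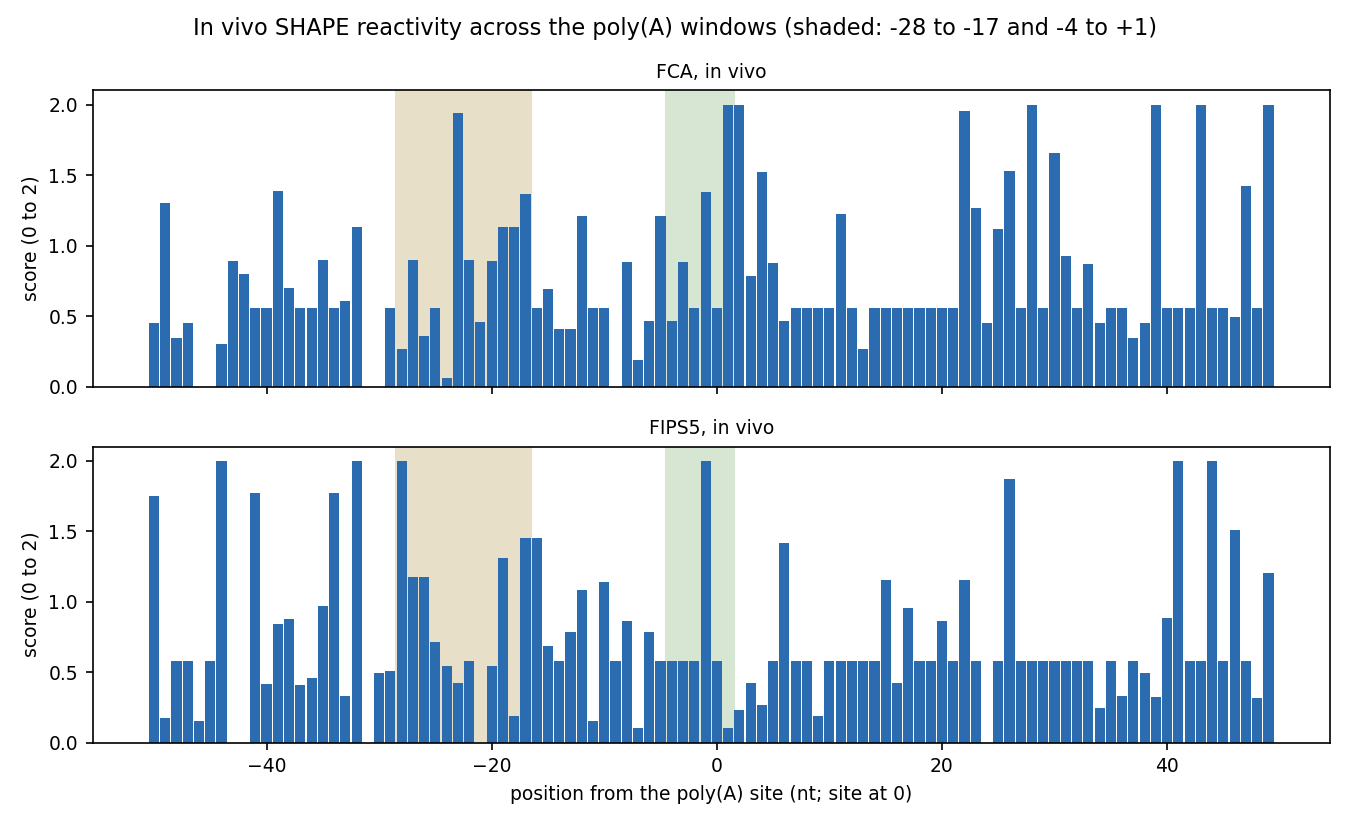
In vivo SHAPE reactivity (score, 0 to 2) of each nucleotide from −50 to +49 around the poly(A) sites of FCA and FIPS5, with −28 to −17 and −4 to +1 shaded. The flat bars are the recurring score of each window, 0.558 in FCA and 0.58 in FIPS5, and they are more frequent after the site than before it.

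The predicted folding of the windows was compared with the scores as a description. From sequence alone, the mean probability of being unpaired in FCA was 0.567 in the upstream region and 0.738 in the cleavage region, against 0.471 in the rest. In FIPS5 it was 0.434 and 0.343, against 0.466. Over the 100 nucleotides of a window, scores and unpaired probabilities correlated weakly, at Pearson r = 0.135 and Spearman rho = 0.162 in FCA and at r = −0.0483 and rho = −0.0624 in FIPS5. With the scores as constraints, FCA was predicted as 0.656 unpaired in the upstream region and 0.709 in the cleavage region, against 0.421 in the rest. In FIPS5 the upstream region, at 0.403, was below the rest at 0.415, and the cleavage region, at 0.577, above it.

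Other genes of 3′ end processing were taken as a further 21 loci, such as the poly(A) polymerases (PAPS1 to PAPS4) and the nuclear poly(A)-binding proteins (PABN1 to PABN3). Of these 12 had a row in some table, with 49 intron rows in the deproteinized and 24 in the in vivo condition. Their −1 score reached 0.6 in 19 of 45 deproteinized introns, against 49.7% of all introns, and in 12 of 23 in vivo introns, against 42.2%. Of their 17 shared introns, 6 were higher by at least 0.3 at −1 after deproteinization, against 21.6% of all shared introns. A further 5 were lower by as much, against 14.1%. The Wilson intervals, 17.3 to 58.7% for the higher and 13.3 to 53.1% for the lower introns, hold these background shares. Of these 17 introns 9 belong to PABN3, 5 to PABN2, 2 to PABN1 and 1 to PCFS4.

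Their poly(A) windows showed no common pattern. Deproteinized windows came from PCFS4, a Pcf11-like factor, and PAPS4, and in vivo windows from PCFS4, PAPS2, PAPS4, PABN3 and SYM1, a symplekin homologue. In vivo, the upstream region exceeded the rest in 5 of 7 windows, against 52.6% of all windows, and the cleavage region in 3 of 7, against 49.1%. After deproteinization these counts were 2 of 3 and 1 of 3. The share over all deproteinized windows was not computed. Over those 1068 windows the median gap to the rest was 0.05 for the upstream and 0.01 for the cleavage region. PCFS4 had the same window in both conditions. Its upstream region averaged 0.812, its cleavage region 0.802 and the rest 0.767 after deproteinization, and in vivo these were 0.814, 0.819 and 0.731. The first PAPS4 site had an upstream mean of 0.788 with 0.937 for the rest after deproteinization, and of 1.25 with 0.769 for the rest in vivo. The second PAPS4 site, 9 nt farther and over nearly the same nucleotides, had 0.996 with 0.9 for the rest after deproteinization, and 1.14 with 0.768 for the rest in vivo. PAPS2 in vivo had 1.14 upstream and 1.23 across the site, against 0.693 for the rest, and these gaps were wider than those of FCA and FIPS5.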

How the data were processed

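The deposited values are scores, not counts. The authors trimmed reads (FastQC 0.11.5 and cutadapt 1.14, as the submitters' processing notes name them), mapped them with HISAT2 2.1.0 to TAIR10 with AtRTD2 isoforms, kept unique hits, merged replicates, counted RT-stops and normalized the reactivities. The scores keep no read depth, so counting error is unknown. For poly(A) windows the study required on average at least 1 RT-stop per nucleotide. Loci, coordinates and strands were matched to the RefSeq annotation of TAIR10.1. SYM2 (AT1G27590), among the other 3′ end processing genes, has no gene there. Its 6 deproteinized intron rows entered only values that need no strand. The poly(A) site of SYM1 lies past the annotated end of its gene.

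Scripts in Python 3 (NumPy, SciPy) computed the −1, branch site and poly(A) values, and ViennaRNA folded 100 nt at 37 °C with Deigan constraints (slope 1.8, intercept −0.6, poly(A) scores divided by 2). The calls recovered planted patterns in 100% of 200 simulated rows. These rows had strong planted values and no recurring or missing scores, so this checked the code and not the calls in such rows. Without replicates no test was run. All 10 genes were described, genes with up to 8 introns intron by intron. The genes, lists and thresholds were chosen with earlier results of these data known. Alternatives comprised other thresholds and flanks, scores of 0 or recurring scores as missing, 1 row per 5′ splice site and leaving out each gene.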

Additional observations from a re-analysis of the deposited data

How the results depend on the processing

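Of 75 alternatives to 14 shares and medians, 69 stayed within the 95% Wilson interval of the share, or within 1 SD of the median correlation, and 6 moved out of it. These intervals are wide, since a share rests on 1 to 13 introns or 2 windows of these genes (23 to 45 introns of the other genes). With the recurring score as missing, an alternative added after the data were seen, the share of introns with −1 above the flanks became 100% (7 of 7) in the deproteinized and 66.7% (4 of 6) in the in vivo condition, and that with the exon after the intron above the intron became 100% (13 of 13) in vivo. With medians in place of means, also added later, that share became 66.7% after deproteinization and 61.5% in vivo. Without FPA the deproteinized −1 share above the flanks became 100% (3 of 3). The cause of these moves was not tested, beyond the fewer introns counted.

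The share of poly(A) windows with a higher cleavage region dropped to 50% with the site at nucleotide 52, with scores of 0 as missing and with medians, and that with a higher upstream region dropped to 50% with the site at nucleotide 50. No paired analysis was possible because each condition has 1 merged profile. Read depth is not kept in the scores, so the precision of a single score is unknown. FPA could not be left out of the comparison between conditions, since no other of these genes is in both tables.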
